A study of Mus musculus with 3 samples.

Results

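Ribosomal protein genes encode the proteins of the cytoplasmic ribosome. They were described here in DamID data of mouse haemogenic endothelium, the endothelium from which blood cells emerge. The members were the protein-coding rows of either deposited gene list whose symbol named a protein of the large subunit (Rpl) or the small subunit (Rps), with the Rps6k kinases left out. There were 30 of them, out of the 84 such genes in a RefSeq table and of 7612 genes listed in all. The members were chosen by being listed, that is by the authors' calls on DamID reads, so the counts and read densities below are descriptions without a test.

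The study made 3 samples, GFI1:DAM, GFI1B:DAM and a DAM control, each from AinV18 embryonic stem cells with a doxycycline-inducible cDNA placed at HPRT. DAM is a bacterial methyltransferase that marks GATC sites near the protein to which it is fused, and the unfused enzyme gives the background. Embryoid bodies of day 3.25 gave the FLK1+ cells, and the TIE-2/c-KIT compartment, taken as haemogenic endothelium, was sorted on day 2 of their culture. The fusions were expressed from an inducible transgene and not from their own genes, and the number of embryonic stem cell clones is not given in the labels. Per the labels' description each sample holds 2 biological replicates together, although the source name gives the first alone, so no value has an SD. The GFI1:DAM list holds 5238 genes and the GFI1B:DAM list 5327. The sequencing depth behind them is unknown, and values of the DAM control were not analysed here. The lists held 4 (GFI1) and 5 (GFI1B) of 6 marker genes of haemogenic endothelium, which does not check the tissue, because a marked gene need not be an expressed one.

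GFI1 and GFI1B are zinc-finger repressors that recruit the demethylase LSD1. Ribosomal protein genes are short and are transcribed at a high level in nearly every cell, and serve here as a group of short active genes. Many carry genes of small nucleolar RNAs in their introns, and many of their messenger RNAs start with a pyrimidine tract through which growth signals control translation. In humans, loss of 1 copy of several of these genes causes Diamond-Blackfan anaemia, a failure of red cell production.

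The GFI1 list held 19 of the 84 ribosomal protein genes (22.6%) and the GFI1B list 21 (25%), while 18.4% and 19.1% of all 21900 protein-coding genes were listed. Both lists held 10 of them (11.9%), against 11.0% of all protein-coding genes. These shares lie near the background of all genes. Genes listed for either fusion were 30 of 84, or 35.7%, against 26.5% of all protein-coding genes.

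In the length range that holds most of them, ribosomal protein genes had larger shares listed than other genes. Ribosomal protein genes had a median length of 3.18 kb, against 17.1 kb for all protein-coding genes. Among the 66 ribosomal protein genes between 1.59 and 5.55 kb, the GFI1 list held 17 (25.8%) and the GFI1B list 16 (24.2%). Of the 3105 other protein-coding genes of that length they held 183 (5.89%) and 232 (7.47%). The ribosomal share was thus 4.37 times that of other short genes for GFI1 and 3.24 times for GFI1B, and 1.23 and 1.31 times that of other protein-coding genes of any length. Both lists held 9 of these 66 ribosomal protein genes (13.6%) and 85 of the 3105 other genes (2.74%). In the length decile with a median of 2.84 kb, the GFI1 list held 14 of 50 ribosomal protein genes and the GFI1B list 13, or 28.0% and 26%, against 5.70% and 7.15% of the other genes. In the next decile, with a median of 5.67 kb, the counts were 4 and 6 of 20, or 20% and 30%, against 7.60% and 8.29%. The other deciles hold few ribosomal protein genes and went both ways. In the shortest, 0 and 2 of 8 were listed, against 3.62% and 2.52% of other genes, and in the one with a median of 9.49 kb 0 of 5 in either list, against 9.84% and 10.1%. Listed and unlisted ribosomal protein genes were of similar length, with medians of 3.12 and 3.56 kb.

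**Figure D1:**
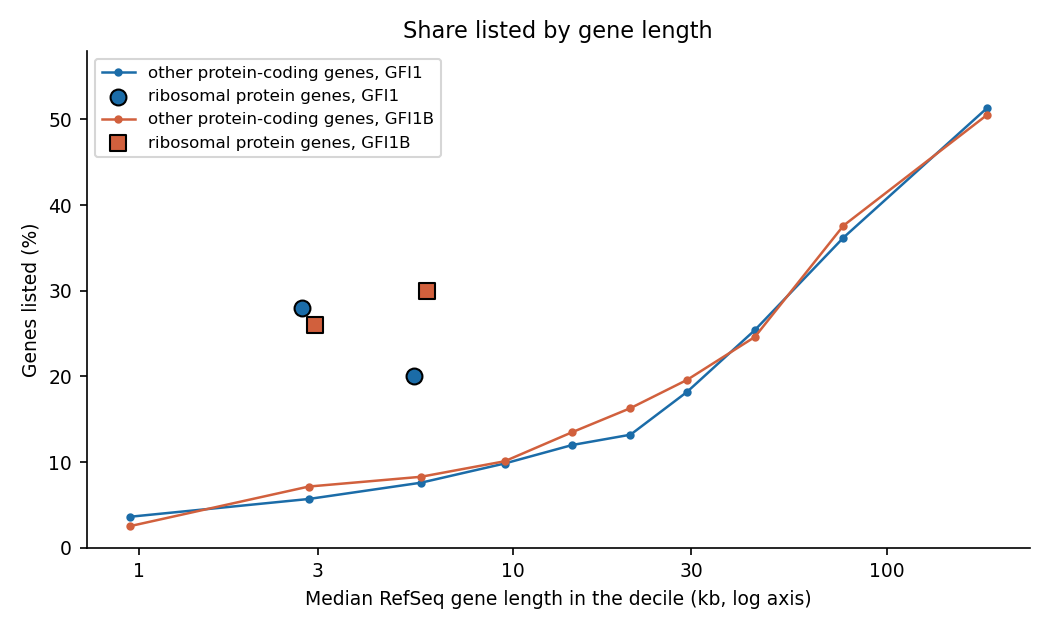
Share of protein-coding genes listed (y axis, percent) by decile of RefSeq gene length (x axis, median length in kb, log scale), with lines for all genes other than ribosomal protein genes and large symbols for ribosomal protein genes in the deciles that hold at least 20 of them, set slightly apart sideways so that both fusions can be seen. The ribosomal symbols, at 20% to 30%, stand above the lines at the same length, which lie at 5.70% to 8.29%.

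Other families of short or active genes stood on both sides of other genes of their length. Of 71 initiation and elongation factors of translation the GFI1 list held 22 and the GFI1B list 17. In their own length range of 4.24 to 60.8 kb the shares were 24.6% and 19.3%, against 14.6% and 15.8% of other genes. Eif1, which helps select the start codon, stood highest among them in both lists, at 136 and 108 reads per kb. Of 40 ribosome biogenesis genes 8 were in the list of GFI1, 6 in that of GFI1B and 5 in both. Within their length range these were 21.9% and 15.6%, against 12.2% and 13.6% of other genes. They included Polr1a, the largest subunit of RNA polymerase I (93.6 and 69.7 reads per kb), Pes1, a factor of large subunit maturation (55.6 and 89.0), and Ncl, the nucleolin gene (43.7 and 68.7). Wdr12, a partner of Pes1, stood at 48.5 reads per kb in the GFI1 list. Nop58, a core protein of box C/D small nucleolar particles, stood at 117 reads per kb in the GFI1B list.

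Mitochondrial ribosomal protein genes were listed 11 and 15 of 78 times, at 14.5% and 21.0% within their length range against 9.99% and 11.2% of other genes. Each list held 5 of 51 proteasome genes, and at 9.76% within their range they stood below other genes (13.0% and 14.1%). NADH dehydrogenase genes were found 2 and 9 times of 49, and within their range stood below other genes for GFI1 (5.13% against 10.7%) and above them for GFI1B (23.1% against 12.0%). The small families of snRNP genes (3 and 2 of 12) and chaperonin genes (2 and 1 of 9) rest on 8 and 7 genes within their ranges. For snRNP genes the shares were 37.5% and 12.5% against 10.7% and 11.3%, and for chaperonin genes 28.6% and 14.3% against 16.0% and 17.1%. Families known for little expression outside their own tissues are short, and their small shares have to be read against short genes. Olfactory receptor genes were found 52 and 25 times of 1110, and within their range at 4.63% and 2.43% against 5.42% and 6.19% of other genes. Those found had median densities of 73.3 and 60.0 reads per kb. Beta-defensins were found 2 and 1 times of 42, at 3.12% within their range in each list, against 7.28% and 8.34%. Keratin-associated protein genes were found 0 and 1 times of 56, at 0% and 2.27% within their range against 3.72% and 2.30%. Unfused DAM is known to mark open chromatin, and its part in the ribosomal count was not tested, since no values of the control were analysed here.

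**Figure D2:**
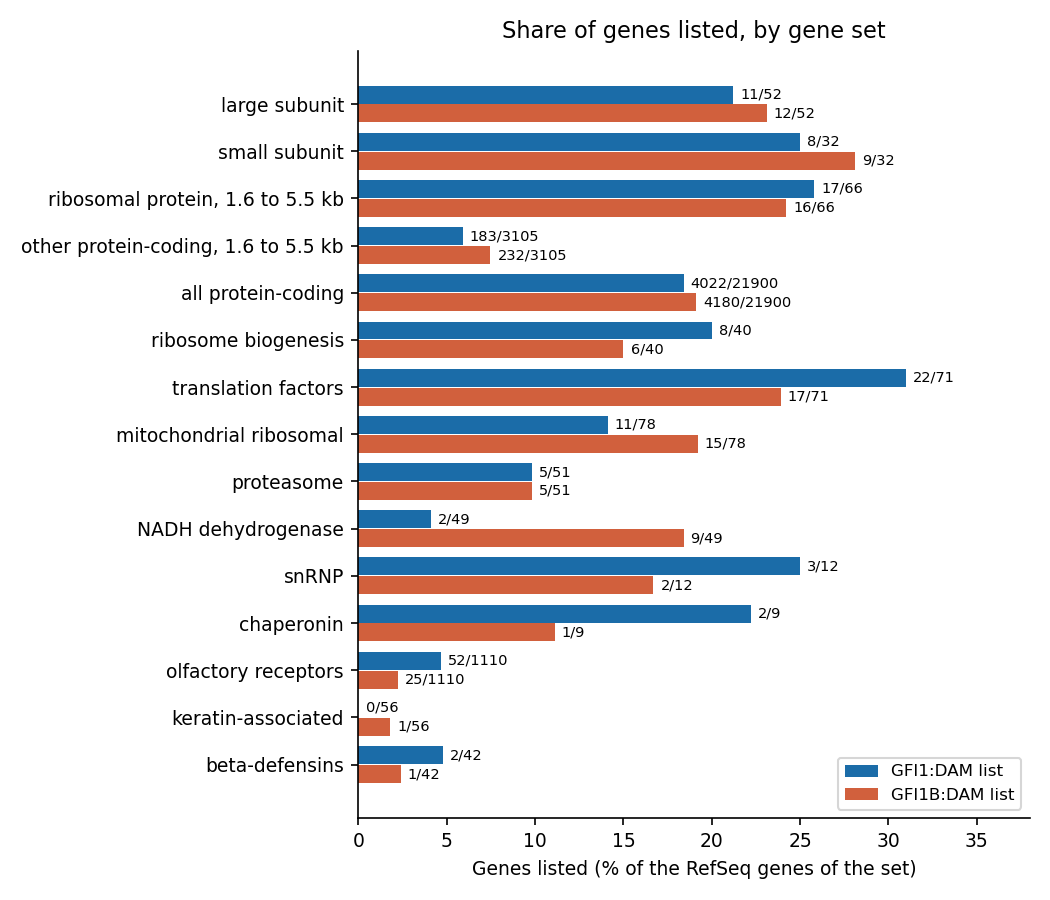
Percent of RefSeq genes listed (x axis, from 0) for each gene set (y axis), with 1 bar per fusion and the count listed over the genes in the set beside each bar. Ribosomal protein genes of 1.59 to 5.55 kb reach 25.8% and 24.2%, other genes of that length 5.89% and 7.47%, and olfactory receptors 4.68% and 2.25%. Sets without a stated length range are drawn over all their genes, so their bars are not matched for length. Olfactory receptors have a median length of 0.95 kb.

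Both subunits were represented. The GFI1 list held 11 of 52 large subunit genes (21.2%) and 8 of 32 small subunit genes (25%), a difference, large minus small, of -3.85 percentage points. The GFI1B list held 12 (23.1%) and 9 (28.1%), a difference of -5.05 percentage points. The 95% exact (Clopper-Pearson) binomial intervals of these shares were 11.1% to 34.7% and 11.5% to 43.4% for GFI1. For GFI1B they were 12.5% to 36.8% and 13.7% to 46.7%. They cover counting of genes only, and whether the subunits differ was not tested. In the GFI1 list the median was 43.1 reads per kb for large and 53.6 for small subunit genes. In the GFI1B list the medians were 48.6 and 67.8. Of the large subunit genes 3 of 11 and 5 of 12 lay above the median of all rows, and of the small subunit genes 5 of 8 and 7 of 9. None of the 7 RefSeq variant forms, such as Rpl3l of muscle and Rpl10l of testis, was in either list.

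Read densities of the ribosomal protein genes lay on both sides of the median of all listed genes. Reads per kb are the deposited reads over the summed length of a gene's intervals. They are not scaled to library size and rank genes only inside a list. In the GFI1 list the members ranged from 24.8 to 116 reads per kb with a median of 44.0, while all rows had a median of 48.7. In the GFI1B list they ranged from 22.9 to 117 with a median of 57.6, against 53.6 for all rows. Between 1.59 and 5.55 kb the members' median lay below that of other listed genes in both lists. It was 44.0 against 48.5 for GFI1 and 48.6 against 54.4 for GFI1B. Of the members 8 of 19 and 12 of 21 stood above the median of all rows. At 100 reads per kb or more stood 2 of the 19 and 1 of the 21 members, where 7.96% and 10.5% of all rows did. The read number behind a member was small, from 20 to 171 reads (median 67) for GFI1 and from 31 to 272 (median 89) for GFI1B. All rows had medians of 74 and 94 reads. By read number the GFI1B members thus lay below the median of their list, and by reads per kb above it. Median interval width was 1276 bp for GFI1 members and 1501 bp for GFI1B members, against 1201 and 1351 bp for all intervals. Only 1 interval was given for 18 of 19 and 19 of 21 members, and for 75.0% and 71.9% of all rows.

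**Figure D3:**
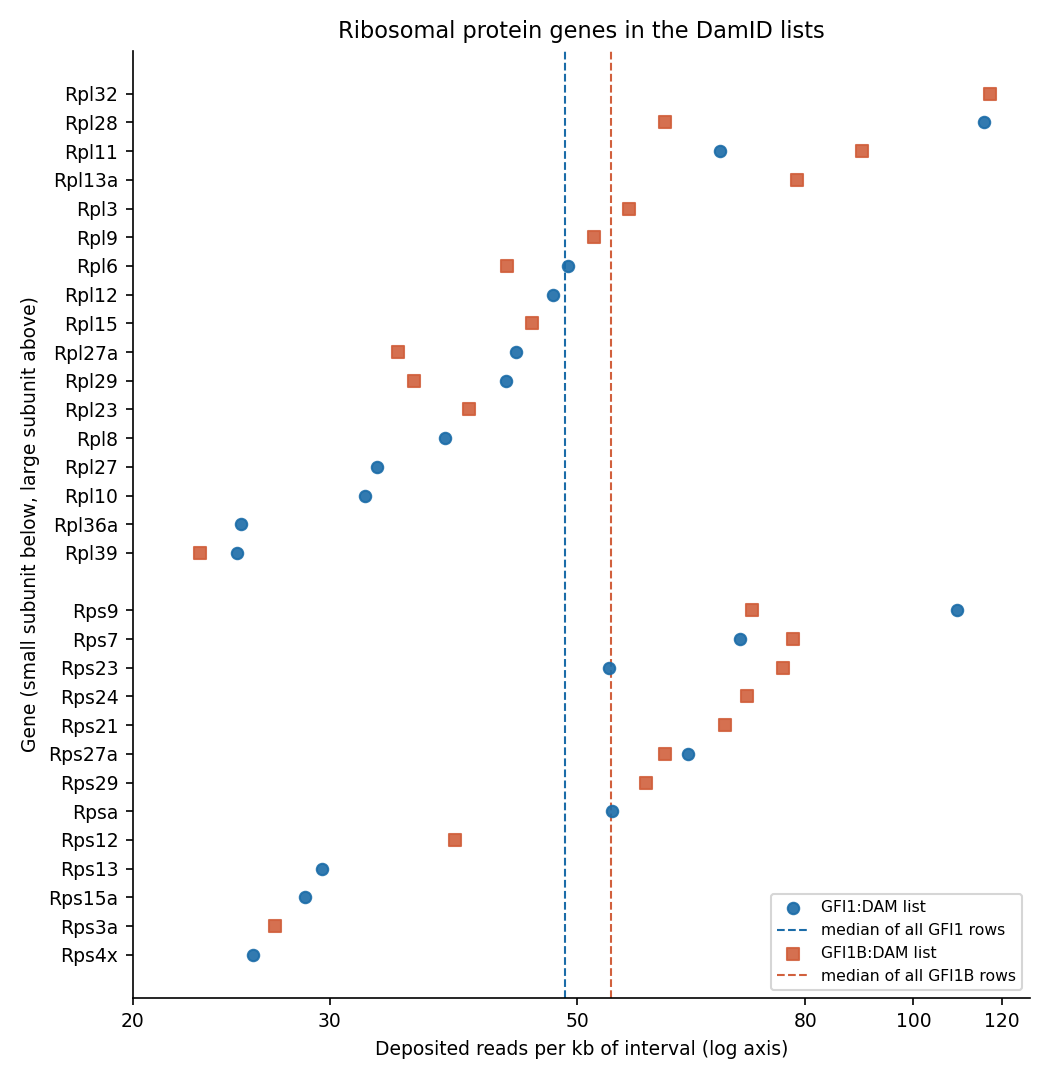
Deposited reads per kb of interval (x axis, log scale) for each of the 30 ribosomal protein genes (y axis, large subunit above and small subunit below), with circles for the GFI1:DAM list, squares for the GFI1B:DAM list and dashed lines at the median of all rows of each list (48.7 and 53.6). Values run from 22.9 to 117, on both sides of the medians, with 10 genes carrying both symbols.

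Among the genes listed for both fusions, Rpl28, a large subunit protein found in eukaryotes, had 139 reads in the GFI1 list, or 116 reads per kb, above 94.6% of rows. In the GFI1B list it had 252 reads over 2 intervals, or 60.0 reads per kb, above 60.6% of rows. Its overlapping intervals lay on chromosome 7 (mm9) at 4746646 to 4747846 for GFI1 and 4746748 to 4749098 for GFI1B, and GFI1B had a further interval at 4741948 to 4743798. Rps9, a small subunit protein near the site where messenger RNA enters, had 137 reads (109.5 reads per kb) for GFI1 and 165 reads (71.7 reads per kb) for GFI1B. It lay on chromosome 7 at 3659646 to 3660896 for GFI1 and 3659498 to 3660948 for GFI1B, with another GFI1B interval at 3655198 to 3656048. Rpl28 and Rps9 were thus the only members at or above 100 reads per kb for GFI1, and each was lower in rank for GFI1B, where its value spans a further interval.

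Rpl11 joins Rpl5 and the 5S RNA in a particle that restrains MDM2, and its human counterpart is a Diamond-Blackfan gene. It had 94 reads (67.1 reads per kb) for GFI1 and 90 reads (89.9 reads per kb) for GFI1B, above 76.2% and 85.7% of rows. Its intervals on chromosome 4 ran from 135586734 to 135588134 and from 135586414 to 135587414, while Rpl5 was in neither list. Rps7, also a Diamond-Blackfan gene in humans, had 154 reads (70.0 reads per kb) and 117 reads (78.0 reads per kb), and stood at nearly the same rank in both lists, above 78.5% and 78.7% of rows. Its intervals lay on chromosome 12 at 29311638 to 29313838 and 29312548 to 29314048. Rps23, a protein of the decoding centre, had 171 reads (53.4 reads per kb) over 3201 bp for GFI1 and 172 reads (76.4 reads per kb) over 2251 bp for GFI1B. Its intervals lay on chromosome 13 at 91063510 to 91066710 and 91064556 to 91066806.

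Rps27a, which is made as a fusion with ubiquitin, stood at 62.8 reads per kb (44 reads) for GFI1 and 60.0 (66 reads) for GFI1B. In both lists its interval was also listed under 1700034F02Rik, its neighbour, which RefSeq calls Clhc1. Rpl6, a large subunit protein, stood at 49.1 and 43.2 reads per kb. Rpl29, a large subunit protein also known to bind heparin, stood at 43.1 and 35.7, and Rpl27a, another large subunit protein, at 44.0 and 34.5. Rpl39, a very small protein of the peptide exit tunnel, was near the bottom of both lists at 24.8 and 22.9 reads per kb. Of the 10 shared genes 6 lay above the median of all rows in both lists and 3 below it in both, and Rpl6 lay above it for GFI1 alone.

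The shared genes were marked at overlapping places. Intervals of the 2 lists overlapped in all 10, and for 9 of them by at least 50% of the shorter interval. The least overlap was at Rpl6, with 651 bp or 39.4% of the shorter interval. The whole of the shorter interval was covered at Rps9, Rps27a and Rpl39. Among all 2472 protein-coding genes in both lists by identifier, 1909 (77.2%) had overlapping intervals. These 2472 genes are of any length, while ribosomal protein genes are short (median 3.18 kb, against 17.1 kb for all protein-coding genes). Intervals listed under a short gene may have less room to lie apart. No overlap share was computed for other genes of that length, so the overlap at all 10 is a description only. The share of the 2472 genes at 50% of the shorter interval was not set beside that of the members either. The 10 shared genes were 52.6% of the GFI1 members and 47.6% of the GFI1B members, against 59.7% and 57.4% of all listed protein-coding genes of any length. Between 1.59 and 5.55 kb the direction was the other way. There 9 of 17 GFI1 members and 9 of 16 GFI1B members were shared, against 85 of 183 and 85 of 232 other genes. The sources used here do not say whether the lists share control reads.

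**Figure D4:**
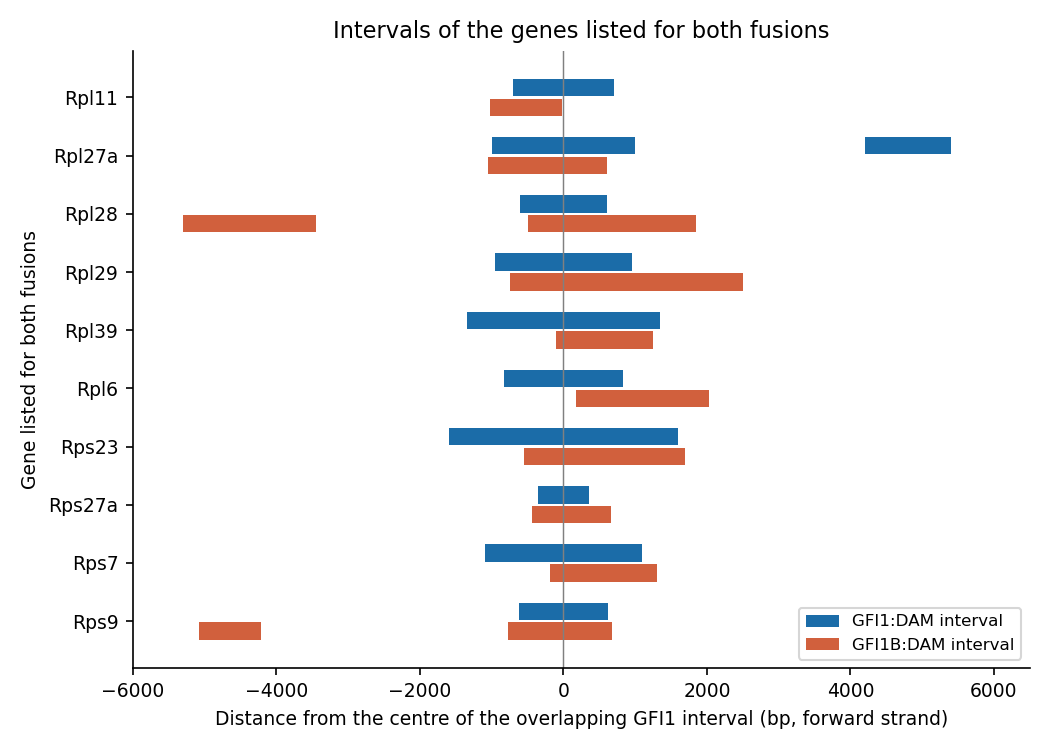
Intervals of the 10 ribosomal protein genes listed for both fusions (y axis), drawn to scale by distance in bp from the centre of the GFI1 interval that overlaps a GFI1B interval (x axis, forward strand). Upper bars are GFI1:DAM and lower bars GFI1B:DAM, and the pairs overlap in all 10 genes, with further separate intervals at Rpl27a, Rpl28 and Rps9.

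Of the 9 genes listed for GFI1 alone, Rpsa stood highest. Its protein belongs to the small subunit and is also known as a laminin receptor, and it had 35 reads or 53.8 reads per kb on chromosome 9 (120042948 to 120043598). It was the only one of the 9 above the median of all rows. Rpl12, a protein of the stalk base, stood at 47.6 reads per kb, Rpl8, near the peptidyl transferase centre, at 38.1, and Rpl27, a Diamond-Blackfan gene in humans, at 33.0. Rpl10, which is added late in ribosome assembly, stood at 32.3 and shared its interval with its neighbour Dnase1l1. Rps13 stood at 29.5, Rps15a, a Diamond-Blackfan gene in humans, at 28.5, Rps4x at 25.6 and Rpl36a at 25.0. Their median of 32.3 reads per kb compares with 58.1 for the shared members in the same list, and with 47.1 and 49.2 for protein-coding rows in the GFI1 list alone and in both lists.

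Of the 11 genes listed for GFI1B alone, Rpl32, a large subunit protein, stood highest at 129 reads or 117 reads per kb on chromosome 6 (115754655 to 115755755), above 92.8% of rows. That interval was also listed under its neighbour Cand2. Rpl13a, which in human myeloid cells also silences translation of inflammatory messenger RNAs, had 67 reads or 78.7 reads per kb on chromosome 7 (52382798 to 52383648). Rps24, a Diamond-Blackfan gene in humans, had 220 reads over 3101 bp on chromosome 14 (25310763 to 25313863), or 70.9 reads per kb. Rps21 stood at 67.8 reads per kb, Rps29, a further Diamond-Blackfan gene in humans, at 57.6, and Rpl3, which helps form the peptidyl transferase centre, at 55.6. Those 6 genes lay above the median of all rows, and 5 lay below it. Rpl9 had 272 reads over the widest interval of any member, 5251 bp, and stood at 51.8 reads per kb. Rpl15, a Diamond-Blackfan gene in humans, stood at 45.5, Rpl23, which can bind MDM2 in human cells, at 40.0, Rps12 at 38.9 and Rps3a, named Rps3a1 in RefSeq, at 26.8. The median of the 11 was 55.6 reads per kb, close to the 60.0 of the shared members in that list, with 51.9 and 55.0 for protein-coding rows in the GFI1B list alone and in both lists.

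None of these 20 places was overlapped by an interval of the other list, whatever gene it was listed under. The same held for nearly all other protein-coding rows in 1 list alone, of which 13 of 1681 (0.773%) for GFI1 and 22 of 1863 (1.18%) for GFI1B were overlapped, so the count is near that background. The nearest interval of the other list lay a median of 75.5 kb away for the GFI1 genes and 52.1 kb for the GFI1B genes. At Rpl9 it lay 1.75 kb away, listed under Klb. Distances of other genes in 1 list alone were not set beside these. Not being listed does not show that a gene was free of the fusion, because values below the authors' threshold were not analysed here. With 1 pooled list per fusion, whether these genes differ between the fusions could not be tested.

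Members on chromosome X stood low. All 4 members on that chromosome in the GFI1 list, Rpl10, Rps4x, Rpl36a and Rpl39, stood at 24.8 to 32.3 reads per kb, and Rpl39 was the lowest member of the GFI1B list. All rows on chromosome X had medians of 36.2 (GFI1, 309 rows) and 33.6 (GFI1B, 241 rows), against 49.4 and 54.6 on the autosomes. Without chromosome X the members' median was 49.1 for GFI1 and 58.8 for GFI1B.

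Most members had a place of their own. An interval listed under no other gene was present for 16 of 19 members for GFI1 and 18 of 21 for GFI1B, or 84.2% and 85.7%, against 95.1% and 92.2% of all protein-coding rows. The neighbours on shared intervals were Clhc1 and Dnase1l1 for GFI1, and Clhc1 and Cand2 for GFI1B, each the next protein-coding gene along the chromosome in RefSeq. Members had 20 GFI1 and 23 GFI1B intervals. Identical intervals listed under another gene aside, only that of Rpl12 for GFI1 and 1 of those of Rps9 for GFI1B had an interval of another gene within 10 kb. No share over all intervals was set beside this count, so it is not read as a trait of the members.

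Few small RNA genes were listed with a host gene of any kind. A small nucleolar RNA gene shared the interval of 1 member in each list (5.26% and 4.76%), and a small RNA gene that of 0.531% and 0.486% of other protein-coding rows. It was Snord14a with Rps13 for GFI1 (29.5 reads per kb) and Snord32a with Rpl13a for GFI1B (78.7 reads per kb). Both belong to the box C/D class, which guides methylation of ribosomal RNA, and both lie inside their host in RefSeq. RefSeq places 64 small RNA genes inside 31 of the 84 ribosomal protein genes. The GFI1 list held 7 of the 31 hosts (22.6%) and 12 of the 53 other genes (22.6%), and the GFI1B list 10 (32.3%) and 11 (20.8%). The listed hosts held 10 and 20 small RNA genes, of which 1 in each list was found under its RefSeq name (10% and 5%). Inside the other listed protein-coding genes 6 of 573 (1.05%) and 3 of 587 (0.511%) were found. The member shares rest on 1 gene each. Names limit this count, since 6 of those 10 and 16 of those 20 have a name other than a provisional one. Rpl13a alone holds Snord32a, Snord33, Snord34, Snord35a and Mir5121, and its interval was listed under Snord32a and no other of them.

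Promoter sequences were compared as a feature that was not used to choose the members. The GATC site is a partial exception, because DAM marks such sites and they can bear on which genes were listed. RefSeq windows of 250 bases before and 50 after the annotated start (GRCm38.p6) were found for 24 of the 30 members, and not for Rpl29, Rpl3, Rpl32, Rpl8, Rps27a and Rps29. The lists give mm9 coordinates and no genome of that build was used, so whether an interval covers a window is not known. Part of the window is given for 6 members, the highest by reads per kb in each list taken in turn, among those with a window and an interval listed under no other protein-coding gene. Each runs from 150 bases before to 30 after the start. Capitals mark the GATC site of DAM, the GFI1 core AATC or its complement GATT, the ETS core GGAAGT or ACTTCC, the YY1 core AAGATGG or CCATCTT, and runs of 8 or more pyrimidines within 30 bases of the start.
Rpl28 (chr7:4792815-4792994, forward strand): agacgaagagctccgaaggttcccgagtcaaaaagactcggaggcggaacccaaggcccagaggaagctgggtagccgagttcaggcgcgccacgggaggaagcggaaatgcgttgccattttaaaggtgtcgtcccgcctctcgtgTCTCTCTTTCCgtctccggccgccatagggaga
Rpl11 (chr4:136053364-136053543, reverse strand): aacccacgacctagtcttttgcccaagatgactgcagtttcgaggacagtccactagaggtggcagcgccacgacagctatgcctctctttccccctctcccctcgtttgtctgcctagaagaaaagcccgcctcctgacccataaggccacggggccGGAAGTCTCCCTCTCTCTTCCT
Rps9 (chr7:3703891-3704070, forward strand): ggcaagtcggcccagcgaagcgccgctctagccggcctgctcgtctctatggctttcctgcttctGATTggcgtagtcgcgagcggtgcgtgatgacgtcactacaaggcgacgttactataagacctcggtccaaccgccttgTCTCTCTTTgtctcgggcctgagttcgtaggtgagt
Rpl13a (chr7:45128716-45128895, reverse strand): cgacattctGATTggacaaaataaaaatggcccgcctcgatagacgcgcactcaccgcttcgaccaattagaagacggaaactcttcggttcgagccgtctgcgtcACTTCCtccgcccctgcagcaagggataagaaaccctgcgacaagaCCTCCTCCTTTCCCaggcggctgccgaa
Rps7 (chr12:28635924-28636103, reverse strand): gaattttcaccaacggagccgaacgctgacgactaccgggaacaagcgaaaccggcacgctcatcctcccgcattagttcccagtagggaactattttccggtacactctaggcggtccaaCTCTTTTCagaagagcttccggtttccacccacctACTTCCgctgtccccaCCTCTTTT
Rps23 (chr13:90922972-90923151, forward strand): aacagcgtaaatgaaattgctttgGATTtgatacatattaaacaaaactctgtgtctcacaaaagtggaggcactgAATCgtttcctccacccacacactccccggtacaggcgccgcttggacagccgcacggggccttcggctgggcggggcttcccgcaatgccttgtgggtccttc

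None of these 6 stretches holds a GATC site. A pyrimidine run crosses the annotated start of Rpl28 (11 bases) and Rps9 (9) and closely follows that of Rpl13a (14), and the run of Rpl11 (17), further downstream, shares a base with an ETS core. Rps7 has runs of 8 bases on both sides of the start, and the longest run of Rps23 near the start is 6 bases. Rps23 holds 2 matches to the GFI1 core, Rps9 and Rpl13a 1 each, and the others none.

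The listed members had 26 windows over 24 genes, since Rps21 and Rps24 each gave an additional window. The unlisted ribosomal protein genes had 50 windows. The pyrimidine tract was searched on the sense strand and only within 30 bases of the start, the other motifs over the whole window. The tract was present in 12 of 26 listed windows (46.2%), in 26 of 50 unlisted ones (52%) and in 22.9% of all 32851 promoter windows. The ETS core, searched on both strands, was in 46.2%, 42% and 23.8%, and the YY1 core in 11.5%, 18% and 6.34%. The GFI1 core was in 69.2%, 72% and 73.1%, and the DAM site in 34.6%, 30% and 48.0%. No motif lies inside another, though adjacent matches can share bases. Listed and unlisted ribosomal windows thus held the tract and the ETS core in larger shares than all windows and the DAM site in a smaller one, and for the GFI1 core the shares were close. A match is a description of letters and not a bound site.

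**Figure D5:**
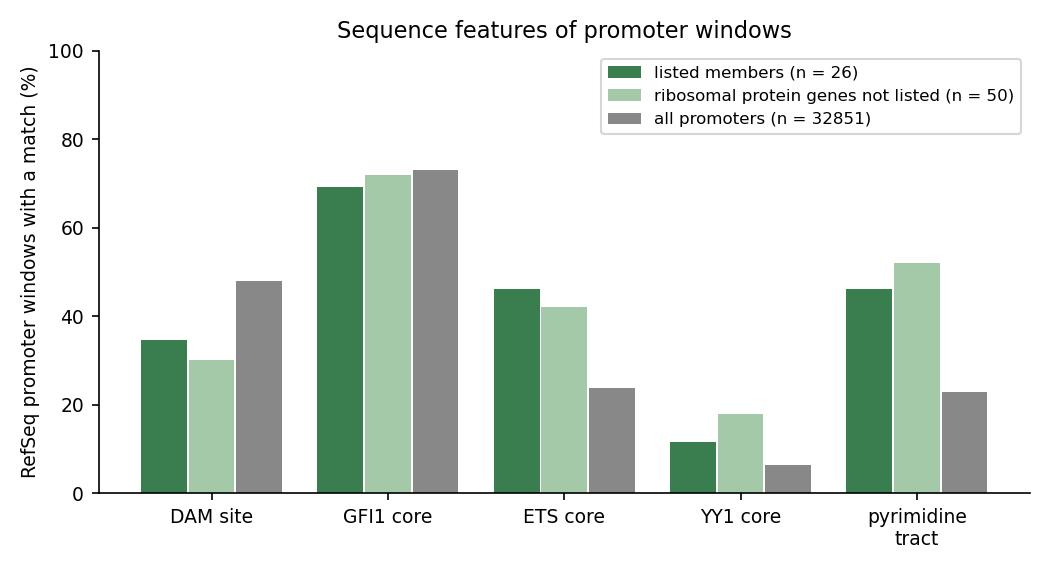
Percent of RefSeq promoter windows, 250 bases before to 50 after the start (y axis), that hold each feature (x axis), for listed members, unlisted ribosomal protein genes and all promoters. The tract, searched only within 30 bases of the start, stands at 46.2%, 52% and 22.9%, and the GFI1 core at 69.2%, 72% and 73.1%.

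The 54 ribosomal protein genes in neither list were 35 of the large and 19 of the small subunit. They included all 3 genes of the acidic stalk (Rplp0, Rplp1 and Rplp2), Rpl5, the partner of Rpl11, and Rps19, Rps10 and Rps26, which are Diamond-Blackfan genes in humans. They also included Rps6, whose phosphorylation is a readout of growth signalling, Rps14, whose loss is known from human myelodysplasia, and Rpl22, whose loss impairs lymphocyte development in mice.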

How the data were processed

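Genomic DNA of haemogenic endothelium from the 3 lines was cut with DpnI, amplified and sequenced, per the labels' protocols. The authors deposited 1 gene list per fusion, assigned here by worksheet name. Per the file headers, the GFI1B list came from BayesPeak and a method written SS at a threshold of 0.05, with lanes merged and control reads subtracted. For the GFI1 list the header ends at the word BayesPeak. Coordinates are on mm9 according to the submitters' processing notes, while the aligner and the rule assigning intervals to genes are not given in the sources. The deposited read number is taken as a score because control reads may already have been subtracted. The deposited signal, reads per kb, equals that number over the summed interval length within 0.0050 in every row.

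Symbols were matched to RefSeq (GRCm38.p6, 49997 genes) by symbol, else by a unique synonym, for 88.4% and 89.1% of rows. That table gave names, lengths, neighbours and promoter windows. The choice of members, the finding of a small RNA gene on the same interval, and interval overlap and width were checked on a simulated list. The other steps were not checked in this way. Members, families and the rule naming every listed member, its co-listed genes and up to 4 ribosome biogenesis genes per list were chosen with earlier results of these data known. The length ranges of the other families were added after the data were seen. Shares were computed with pandas 2.3.3. No test across samples was possible with 1 pooled sample per fusion.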

Additional observations from a re-analysis of the deposited data

How the results depend on the processing

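Of 38 alternatives over 12 results, 33 stayed within set limits and 5 did not. Of the 38, 4 were chosen after seeing the data, and all of those stayed within the limits. The limits were 1.5 times for a count and the 95% interval for a ratio of shares or a median. For the difference between subunits the limit was 0.5 of the width of the small subunit's interval. The interval of a ratio took the share of other genes as fixed. All these intervals treat genes as the units and say nothing of replicates. Kept to the stronger 50% of each list by reads per kb, the members numbered 8 for GFI1, 12 for GFI1B and 6 for both, since the alternative keeps fewer rows. Set beside protein-coding genes of any length, the ratio of shares was 1.23 for GFI1 and 1.31 for GFI1B. The large minus small difference kept its sign and shrank by over 1.5 times, from -3.85 to -1.89 percentage points for GFI1 and from -5.05 to -2.95 for GFI1B without the variant forms, and to -1.47 and -2.36 with RefSeq genes of any biotype. Wider and narrower symbol rules also gave 19, 21 and 10 genes, and the narrower rule could not change them, since no variant form was listed. By read number the GFI1B members had a median of 89 against 94 for all rows. By reads per kb it was 57.6 against 53.6, so the side changed although the limit was kept. No paired analysis was possible because each fusion has 1 pooled sample and no test was made. Leaving out a replicate was not possible either, since no replicate can be told apart. Depth is unknown, the smallest member rests on 20 reads, and unlisted genes have no value, so an unlisted gene may lie just below the authors' threshold.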

Other observations

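Copies of ribosomal protein genes that carry a pseudogene symbol were listed as well, 12 for GFI1 and 16 for GFI1B, 23 different ones in all. The authors' biotype was protein-coding for 4 and 7 of them and pseudogene for 8 and 9. In the GFI1 list their median was 44.8 reads per kb (23.5 to 83.0), and in the GFI1B list 44.3 (26.6 to 94.7). Of these, 5 were in both lists, namely Rpl23a-ps1 (83.0 reads per kb in the GFI1 list and 44.8 in the other), Rps2-ps6 (47 and 86.5), Rpl34-ps1 (44.7 and 42.9), Rpl30-ps5 (28.5 and 32.1) and Rpl30-ps8 (23.5 and 42.2). The gene that each copy is named after was itself listed in 1 of 12 cases for GFI1, which is Rpl10, and in 2 of 16 for GFI1B, which are Rpl9 and Rps24. Of all ribosomal protein genes, 22.6% and 25% were listed. Unlisted copies were not counted, so the share of copies that was listed is not known, and whether these counts differ from other genes was not tested. The sources used here do not say how reads matching both a gene and its copies were handled, so values of genes and copies are uncertain to that extent.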
